A study of Homo sapiens with 3 samples.

Results

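The regions described here are ChIP-seq peaks of C11orf84 and Spindlin1 in the zinc finger gene clusters of human chromosome 19. Members are all peaks whose summit lies, in hg19, in one of 5 windows of the chromosome. Window 1 runs from 19.8 to 24.5 Mb on the short arm. Window 2 (36.6 to 38.4 Mb), window 3 (44.3 to 45 Mb), window 4 (52.3 to 54.1 Mb) and window 5 (56.1 to 59.1 Mb) are on the long arm. The windows hold 397 of 177639 C11orf84 peaks and 275 of 153468 Spindlin1 peaks. The rest of chromosome 19 holds 8419 C11orf84 and 6331 Spindlin1 peaks and serves as the comparison.

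Both libraries were made from U2OS, an established human osteosarcoma cell line, without treatment. An antibody against C11orf84 gave one library and an antibody against Spindlin1 the other, and there are no replicates. A library without antibody (Input) is the third sample of the series and has no file used here. All intervals below cover counting error only, take each peak as independent and hold no variation between experiments. They are 95% intervals, except those of a difference between shares. The latter run between the bounds of the 95% intervals of both shares and are wider. No p-value is given.

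The windows are known for tandem arrays of genes that encode C2H2 zinc finger proteins, most of them with a KRAB domain. KRAB zinc finger proteins bind DNA, often in retrotransposons, and recruit the corepressor TRIM28, which brings in the enzyme that trimethylates histone H3 at lysine 9. The gene clusters themselves carry broad domains of that mark (H3K9me3), densest over the exons that encode the fingers. Spindlin1 is a Tudor domain protein that reads H3K4me3, also where the same tail carries H3K9me3, and C11orf84 is its binding partner. The files do not measure any histone mark, so whether the windows carry these marks in the U2OS cells used was not tested.

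By name, 262 of 1451 protein-coding genes of chromosome 19 in RefSeq (GRCh38.p14) have zinc finger symbols, from ZNF, ZFP and ZSCAN to ZIM, ZIK, PEG3 and MZF1, without readthrough genes and ZFP36, whose fingers are of another type. The longest unbroken run in gene order has 27 such genes, from ZNF737 to ZNF681, and includes ZNF91, which is known to silence SVA retrotransposons. This run is known to lie at the place of window 1. Runs of 24 genes from ZNF565 to ZNF793 and of 20 genes from ZNF283 to ZNF180 are known at the places of windows 2 and 3. Window 4 is known for the run of 10 genes from ZNF577 to ZNF836, and window 5 for the run of 23 genes from ZNF772 to ZNF256, for imprinted PEG3 and for TRIM28 itself. A further run of 24 genes, ZNF627 to ZNF791, lies on the short arm outside the windows, so the rest of the chromosome is not free of zinc finger genes. The peaks have hg19 positions and were set against windows only, not against single genes.

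Peaks of both proteins were sparse in the windows. Over the full window length, C11orf84 had 33.1 peaks per Mb (29.9 to 36.5) and Spindlin1 had 22.9 per Mb (20.3 to 25.8). On the rest of chromosome 19, outside the peak-free stretch at the centromere, C11orf84 had 192.7 per Mb (188.6 to 196.8) and Spindlin1 had 144.9 per Mb (141.3 to 148.5). The ratio of windows to rest was 0.172 (0.155 to 0.190) for C11orf84 and 0.158 (0.140 to 0.179) for Spindlin1. The windows thus stood below the rest by more than counting error in both lists. Over length without long peak-free stretches, the mean of chromosomes 1 to 22 and X was 66.7 C11orf84 and 57.6 Spindlin1 peaks per Mb. Over length of the same kind the windows together stood below this mean, at 45.7 C11orf84 and 31.7 Spindlin1 peaks per Mb. Window 5 alone stood above the mean for C11orf84 and had an interval that holds it for Spindlin1.

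These ratios depend on what is counted as length. Chromosome 19 has 3 stretches of at least 1 Mb without a peak of either protein, and 2 of them lie in window 1. When all 3 were left out of the length, the densities in the windows were 45.7 C11orf84 and 31.7 Spindlin1 peaks per Mb. The ratio to the rest was then 0.237 (0.214 to 0.262) for C11orf84 and 0.218 (0.193 to 0.247) for Spindlin1. This was the planned setting, while the one used for the lower ratios above was chosen after seeing the data. Peaks of high significance were as unevenly placed, since those whose −log10 q was 10 or more gave ratios of 0.249 (0.166 to 0.359) for C11orf84 and 0.247 (0.147 to 0.391) for Spindlin1. Read depth below the background floor and the share of each window to which reads can be mapped are not in the files, and their part in the low numbers was not tested.

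**Figure D1:**
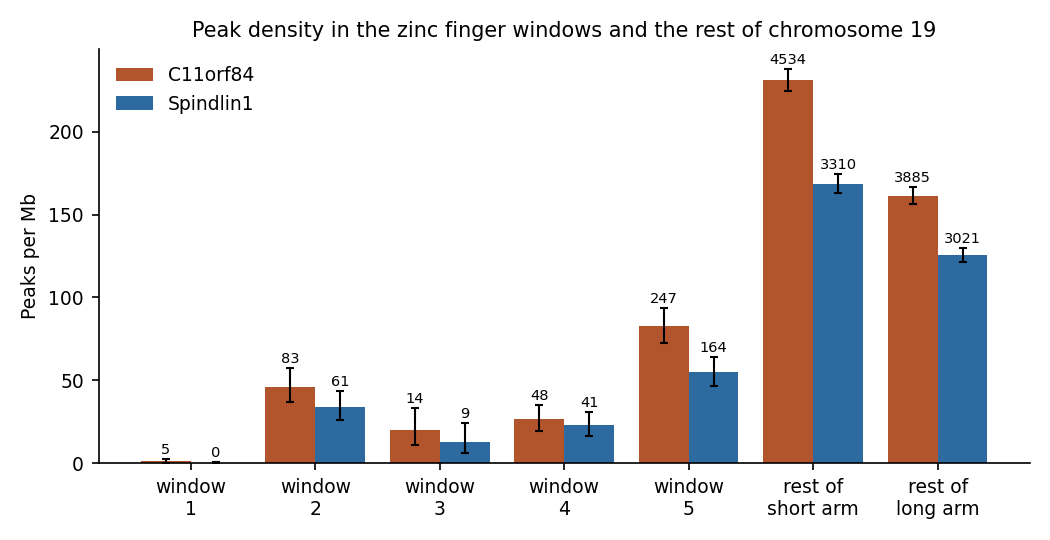
Peaks per Mb (vertical axis, linear from 0) of C11orf84 and Spindlin1 in each window and on the rest of the short and long arm of chromosome 19. Bars are the density over the full length, error bars exact Poisson 95% intervals, and the numbers above them count peaks. Window 1 had 5 C11orf84 peaks and 0 Spindlin1 peaks, and each window lay below both parts of the rest in both lists.

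Window 1, in band p12, was nearly empty. It held 5 C11orf84 peaks in 4.7 Mb, 1.06 per Mb (0.345 to 2.48), and 0 Spindlin1 peaks, for which the Poisson interval ends at 0.785 per Mb and the limit of 3 counts is 0.638 per Mb. The C11orf84 peaks lay at chr19:19843537-19843879, chr19:20149960-20150249, chr19:21203494-21203683, chr19:23456650-23456984 and chr19:24216535-24216730. Their summits had 8 to 11 fragments over the lowest background of the list, and folds of 4.42 to 5.89. None of the 5 overlapped a Spindlin1 peak. The longest piece of the window without a peak of either protein measured 2253 kb and ran from the third to the fourth of these peaks.

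Spindlin1 peaks resumed close to both sides of window 1. The last Spindlin1 peak before it was chr19:19774339-19774903 (fold 5.28, 10 fragments), with its summit 25.5 kb outside. The first after it was chr19:24513880-24514074 (fold 5.64, 10 fragments), 13.97 kb outside. For C11orf84 the nearest summits outside lay 119.0 kb before and 24.7 kb after the window, with 12 and 7 fragments.

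The long arm windows each held more peaks per Mb than window 1. Window 2 had 46.1 C11orf84 peaks per Mb (36.7 to 57.2) and 33.9 Spindlin1 peaks per Mb (25.9 to 43.5). Window 3 had 20.0 C11orf84 (10.9 to 33.6) and 12.9 Spindlin1 peaks per Mb (5.88 to 24.4), from 14 C11orf84 and 9 Spindlin1 peaks. Window 4 had 26.7 C11orf84 (19.7 to 35.4) and 22.8 Spindlin1 peaks per Mb (16.4 to 30.9). Window 5, at the end of the arm, was the fullest with 82.5 C11orf84 (72.5 to 93.5) and 54.8 Spindlin1 peaks per Mb (46.7 to 63.8), and it supplied 247 of the 397 C11orf84 and 164 of the 275 Spindlin1 members. The intervals of windows 3 and 4 overlapped in both lists, so their order is not resolved. Even window 5 stayed below the rest of the long arm, at 161.4 C11orf84 (156.4 to 166.6) and 125.5 Spindlin1 peaks per Mb (121.1 to 130.1). Without window 5, the ratio to the rest of the chromosome, with long peak-free stretches left out, fell to 0.137 for C11orf84 and 0.135 for Spindlin1.

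In bases, C11orf84 peaks covered 113.2 kb of the windows (0.943%) and Spindlin1 peaks 75.5 kb (0.629%). On the rest of the chromosome the covered part was 5.88% for C11orf84 and 3.98% for Spindlin1. Window 5 had the highest covered part of the windows, with 2.46% for C11orf84 and 1.58% for Spindlin1. Window 1 had 0.0288% for C11orf84.

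Counted in bins of 100 kb, most of the windows held a handful of peaks and a few bins held many. The 120 window bins had a median of 2 C11orf84 and 1 Spindlin1 peaks, against 16 C11orf84 and 12 Spindlin1 peaks in 435 bins of the rest. No C11orf84 peak was found in 43 window bins (35.8%) and no Spindlin1 peak in 55 (45.8%), against 22 (5.06%) bins of the rest without C11orf84 and 24 (5.52%) without Spindlin1. Window 1 supplied 42 of the 43 bins without C11orf84 and 47 of the 55 without Spindlin1. In windows 2 to 5 only 1 of 73 bins lacked peaks of both proteins. At least 10 C11orf84 peaks were found in 9 window bins (7.5%), against 283 bins (65.1%) of the rest, and at least 10 Spindlin1 peaks in 7 (5.83%), against 254 (58.4%). The rest had sparse stretches too. Its bins from chr19:11700001 to 12700000 held 1 to 6 C11orf84 and 0 to 7 Spindlin1 peaks each, and those from chr19:43300001 to 43800000 held 0 of either protein.

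The full bins of the windows were few. The 5 fullest held 130 of the 397 C11orf84 members (32.7%) and 78 of the 275 Spindlin1 members (28.4%). The fullest was the first bin of window 5, chr19:56100001-56200000, with 37 C11orf84 and 21 Spindlin1 peaks. The bin chr19:56600001-56700000 in the same window had 34 C11orf84 and 16 Spindlin1 peaks, and chr19:58800001-58900000 had 23 C11orf84 and 12 Spindlin1 peaks. Between the bins at 56100001 and 56600001, chr19:56300001-56400000 had 0 peaks of either protein, inside a stretch of 241.3 kb without a peak. In window 2 the first bin, chr19:36600001-36700000, had 18 C11orf84 and 14 Spindlin1 peaks, and no other bin of that window passed 8 C11orf84 or 5 Spindlin1 peaks. No bin of window 3 had over 3 C11orf84 or 2 Spindlin1 peaks, and no bin of window 4 had over 6 C11orf84 or 5 Spindlin1 peaks.

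**Figure D2:**
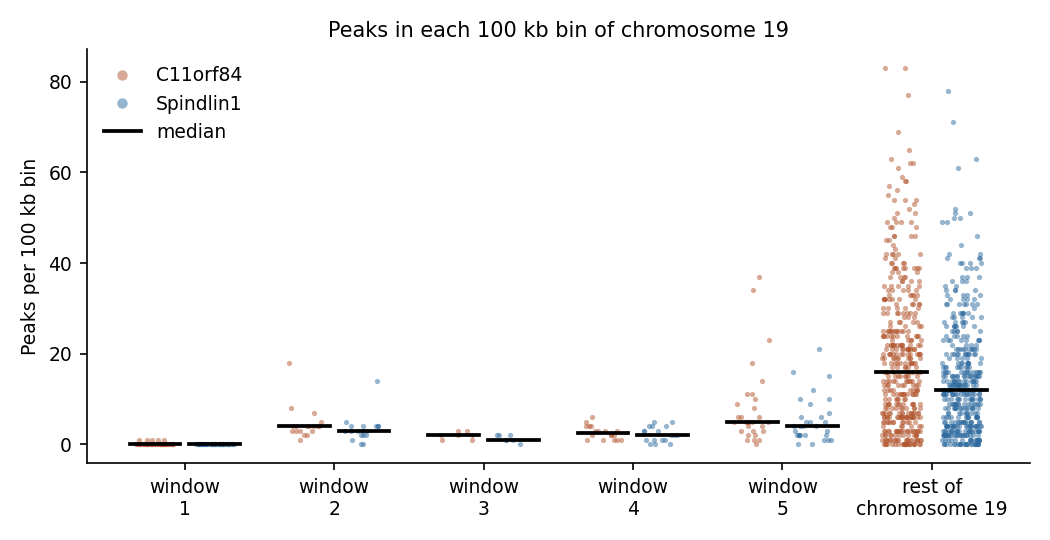
Number of peaks in each bin of 100 kb (vertical axis) for the 5 windows and the rest of chromosome 19. Each point is a bin, spread sideways to be visible, and the black line is the median of the list in that group. Window medians lay between 0 and 5 peaks, against 16 C11orf84 and 12 Spindlin1 peaks on the rest.

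The numbers of the 2 proteins went together from bin to bin. Over the 120 window bins Pearson's correlation of C11orf84 with Spindlin1 numbers was 0.928 and Spearman's 0.879. Over the 73 bins of windows 2 to 5 these were 0.910 and 0.688, and over the 435 bins of the rest 0.941 and 0.949. Bins are not independent, both lists come from the same cells, and the fullest bins weigh on Pearson's value.

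On average, peak numbers were lower inside the window borders than outside them. Averaged over the 8 borders that have a flank, the outermost 100 kb inside a window held 8.75 C11orf84 and 5.62 Spindlin1 peaks, and the next 100 kb inward held 3.25 C11orf84 and 2.5 Spindlin1 peaks. Further in, at 200 to 300 kb, the mean was 2 peaks in both lists. At 400 to 500 kb inside it was 3.33 C11orf84 and 1.67 Spindlin1 peaks, over 6 borders. Outside, the nearest 100 kb held 11.6 C11orf84 and 7.88 Spindlin1 peaks on average. The stretch 300 to 400 kb away had the highest means, 24.0 C11orf84 and 15.6 Spindlin1 peaks. At 400 to 500 kb outside the means were 16.9 C11orf84 and 12.9 Spindlin1 peaks. Single borders differed widely, with 1 to 37 C11orf84 peaks in the outermost 100 kb inside and 0 to 29 in the nearest 100 kb outside. Medians there were 3.5 C11orf84 and 2 Spindlin1 peaks inside, and 8.5 C11orf84 and 4.5 Spindlin1 peaks outside. C11orf84 was higher inside at the left of window 5 (37 against 29), the right of window 4 (5 against 3) and the left of window 1 (1 against 0). Spindlin1 was higher inside at the left of window 5 (21 against 19) and equal at the left of window 4 (2 against 2). Within 100 kb of a border lay 84 C11orf84 members (21.2%) and 55 Spindlin1 members (20.0%) in 8.33% of the window length. This count takes in every border, also those at the chromosome end and beside the centromere, which the averages leave out. Most of it came from the first bin of window 2 and the first and last bins of window 5. These held 18, 37 and 14 C11orf84 and 14, 21 and 10 Spindlin1 peaks, in this order. At the other borders no outermost 100 kb passed 5 C11orf84 or 3 Spindlin1 peaks. The inner part of the windows had 28.5 C11orf84 and 20.0 Spindlin1 peaks per Mb.

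**Figure D3:**
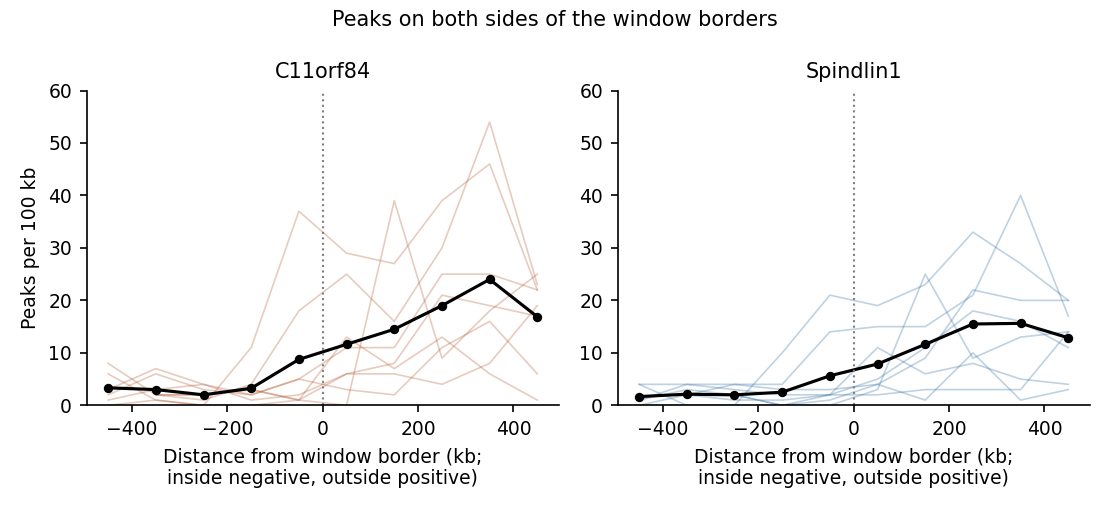
Peaks per 100 kb (vertical axis) by distance from the nearest window border in kb (horizontal axis, inside the window on the left and outside on the right), for C11orf84 and Spindlin1. Pale lines are single borders and the black line is their mean, without the borders at the chromosome end and beside the centromere and without positions past the middle of a window. The mean was 2 peaks in both lists at 200 to 300 kb inside, and 3.33 C11orf84 and 1.67 Spindlin1 peaks at 400 to 500 kb inside. Outside it was highest at 300 to 400 kb, with 24.0 C11orf84 and 15.6 Spindlin1 peaks. At 400 to 500 kb outside it was 16.9 C11orf84 and 12.9 Spindlin1 peaks.

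C11orf84 peaks outnumbered Spindlin1 peaks in the windows by 1.44 (1.23 to 1.69). On the rest of chromosome 19 the ratio was 1.33 (1.29 to 1.37), and over chromosomes 1 to 22 and X it was 1.16 (1.15 to 1.17). The windows did not differ from the rest of the chromosome beyond counting error in this ratio. It was 1.51 (1.23 to 1.85) in window 5, 1.36 (0.966 to 1.93) in window 2, 1.56 (0.627 to 4.07) in window 3 and 1.17 (0.756 to 1.82) in window 4. Peaks at the background floor alone gave 1.69 (1.38 to 2.08) in the windows, against 1.36 on the rest.

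Peaks found in the windows had the same median fold as peaks of the rest of the chromosome. The authors' fold enrichment of a peak, its summit over a local background, had a median of 5.40 in the windows and 5.40 on the rest for C11orf84, and of 5.64 in both for Spindlin1. These equal values come from a coarse scale, since most summits have few whole fragments over the same background. Summit depth, recovered from the authors' fold and −log10 p, had a median of 11 fragments in the windows (interquartile range 9 to 13) and 10 on the rest (9 to 12) for C11orf84. For Spindlin1 it was 10 (9 to 13) in the windows and 10 (9 to 12) on the rest. The authors' −log10 q was 10 or more in 30 C11orf84 members (7.56%, 5.16 to 10.6) and 19 Spindlin1 members (6.91%, 4.21 to 10.6). On the rest it was so in 7.21% of C11orf84 and 6.11% of Spindlin1 peaks. On chromosomes 1 to 22 and X it was so in 15.7% of C11orf84 and 11.8% of Spindlin1 peaks.

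The deepest and widest peaks of the chromosome lay outside the windows. The deepest C11orf84 summit had 21 fragments in the windows and 196 on the rest, and the deepest Spindlin1 summit had 23 in the windows and 183 on the rest. Both of these lay on the long arm, and on the rest of the short arm the deepest summit had 25 fragments for C11orf84 and 26 for Spindlin1. The highest fold differed less, with 9.85 in the windows and 13.1 on the rest for C11orf84. For Spindlin1 it was 11.5 in the windows and 14.1 on the rest. At such folds, summits of 196 and 183 fragments stand on a strongly raised background, so their depth is not a measure of enrichment. The rest also holds far more peaks from which a maximum is taken. At least 20 fragments were reached by 7 C11orf84 members (1.76%, 0.712 to 3.6) and 3 Spindlin1 members (1.09%, 0.226 to 3.15). On the rest 2.29% of C11orf84 (1.98 to 2.64) and 1.78% of Spindlin1 peaks (1.47 to 2.14) reached it, so the intervals overlapped. The widest members measured 842 bp for C11orf84 and 780 bp for Spindlin1, against 5406 bp for C11orf84 and 1158 bp for Spindlin1 on the rest of the long arm, and 2006 bp for C11orf84 and 1492 bp for Spindlin1 on that of the short arm. Median widths were 235 bp in the windows and 246 bp on the rest for C11orf84, and 226 bp in the windows and 228 bp on the rest for Spindlin1.

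The strongest members can be given by position. The highest Spindlin1 fold belonged to a peak of window 5, chr19:58666260-58666833. C11orf84 had a fold of 9.33 with 18 fragments there (chr19:58666506-58666868), and Spindlin1 had 11.5 with 23 fragments. A further C11orf84 peak under the same Spindlin1 peak, chr19:58666058-58666418, had 8.55 with 18 fragments. By fold the higher C11orf84 peak ranked 4781 among 177557 and the Spindlin1 peak 415 among 153378 on chromosomes 1 to 22 and X. The place thus ranked higher for Spindlin1 than for C11orf84, and in neither list was it the highest.

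The second Spindlin1 member by fold had no C11orf84 partner. It lay in window 4 at chr19:52511267-52511547, with a fold of 10.4 at 22 fragments over a background 1.28 times the floor, and the nearest C11orf84 peak was 19879 bp away. Other Spindlin1 members beyond 5 kb of the C11orf84 list were weaker, led by chr19:36835430-36835615 in window 2 with a fold of 7.68, and chr19:53103885-53104099 in window 4, with a fold of 6.16. A missing peak is the absence of a call at this depth.

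The highest C11orf84 fold was 9.85 at 20 fragments, at chr19:37288451-37288696 in window 2. The Spindlin1 peak there had only 7 fragments and a fold of 4.11, and 7 is the lowest Spindlin1 depth in the windows. The second C11orf84 member by fold was chr19:57946742-57947262 in window 5, with 9.47 at 21 fragments. The third was the peak of window 5 described above with 9.33, and the fourth was chr19:37329639-37329891 in window 2, with 9.003 at 19. The Spindlin1 partner of the second had a fold of 6.79 and that of the fourth had 8.16. At chr19:58193344-58193905 in window 5 both lists were close, with a C11orf84 fold of 8.92 and a Spindlin1 fold of 8.72. Folds of the 2 lists are each relative to their own library.

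C11orf84 also had members beyond 5 kb of the Spindlin1 list. The highest by fold was chr19:57999058-57999337 in window 5, with a fold of 8.35 at 16 fragments and the nearest Spindlin1 peak 5562 bp away. Next were chr19:53703492-53703699 in window 4 and chr19:56497947-56498137 in window 5, both with 14 fragments at the floor and a fold of 7.36. They lay 24266 and 40811 bp from the Spindlin1 list. The peak at 56497947 closes the stretch of window 5 that lacked peaks of either protein.

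In window 3 the leading members were modest. C11orf84 had its highest fold at chr19:44301672-44301924, 8.35 at 16 fragments, close to the left border of the window, and the overlapping Spindlin1 peak had 4.62 at 8. Spindlin1 had its highest fold at chr19:44617783-44617956, 6.51 at 14 fragments, where C11orf84 had 6.60 at 15. In window 4 the leading C11orf84 peak, chr19:52430650-52430971, had the same fold of 8.35 and a Spindlin1 partner at 4.62. In window 2 the leading Spindlin1 peak was chr19:38145796-38146393 with a fold of 9.12 at 18 fragments. It overlapped a pair of C11orf84 peaks. The one at chr19:38145785-38146012 had 14 fragments over a background 1.18 times the floor, and a fold of 6.75, and the one at chr19:38146130-38146777 had 17 fragments over a background 3.272 times the floor, and a fold of 4.097.

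The widest members were shared and lay in window 5. The C11orf84 peak chr19:59030791-59031632 measured 842 bp and its Spindlin1 partner, chr19:59030985-59031627, 643 bp, near the end of the chromosome. At chr19:58513695-58514498 the C11orf84 peak measured 804 bp with a fold of 7.51, and the Spindlin1 peak 780 bp with a fold of 8.72. The third C11orf84 peak, chr19:56151770-56152571, measured 802 bp on a background 2.181 times the floor, with a fold of 4.29, and the Spindlin1 peak there had 3.79. The second widest Spindlin1 peak, chr19:58661614-58662312, measured 699 bp and lay less than 5 kb from the place of highest Spindlin1 fold.

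The overlapping part of both lists was lower in the windows. By at least 1 bp, 156 C11orf84 members (39.3%, 34.5 to 44.3) overlapped a Spindlin1 peak, and 151 Spindlin1 members (54.9%, 48.8 to 60.9) overlapped a C11orf84 peak. Over chromosomes 1 to 22 and X the shares were 57.6% for C11orf84 and 69.7% for Spindlin1. On the rest of chromosome 19 they were 46.1% (45.01 to 47.1) for C11orf84 and 62.9% (61.7 to 64.1) for Spindlin1, and the intervals of windows and rest narrowly did not overlap. The difference depended on the definition and on the windows counted. Without window 5 it was -4.74 percentage points (-13.8 to 4.65) for C11orf84 and -9.71 (-20.6 to 1.03) for Spindlin1, and both intervals hold 0. With at least 50% of both intervals covered, 27.5% of C11orf84 and 39.6% of Spindlin1 members were shared, against 28.9% of C11orf84 and 38.4% of Spindlin1 peaks on the rest, with overlapping intervals in both lists.

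Sharing rose with summit depth inside the windows as it did outside. Of C11orf84 members with fewer than 10 fragments 26.1% (18.3 to 35.1) were shared, of those with 10 to 14 fragments 38.01% (31.6 to 44.8), and of those with 15 or more 68.9% (55.7 to 80.1). On the rest these C11orf84 shares were 33.3%, 47.8% (46.4 to 49.3) and 72.0%. For Spindlin1 members they were 42.7% (31.8 to 54.1), 55.6% (47.6 to 63.5) and 81.8% (64.5 to 93.0), against 54.5%, 64.3% (62.7 to 66.0) and 83.0% of Spindlin1 peaks on the rest. The intervals of windows and rest were apart in the middle class of C11orf84 only. They overlapped in its other classes and in every class of Spindlin1.

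**Figure D4:**
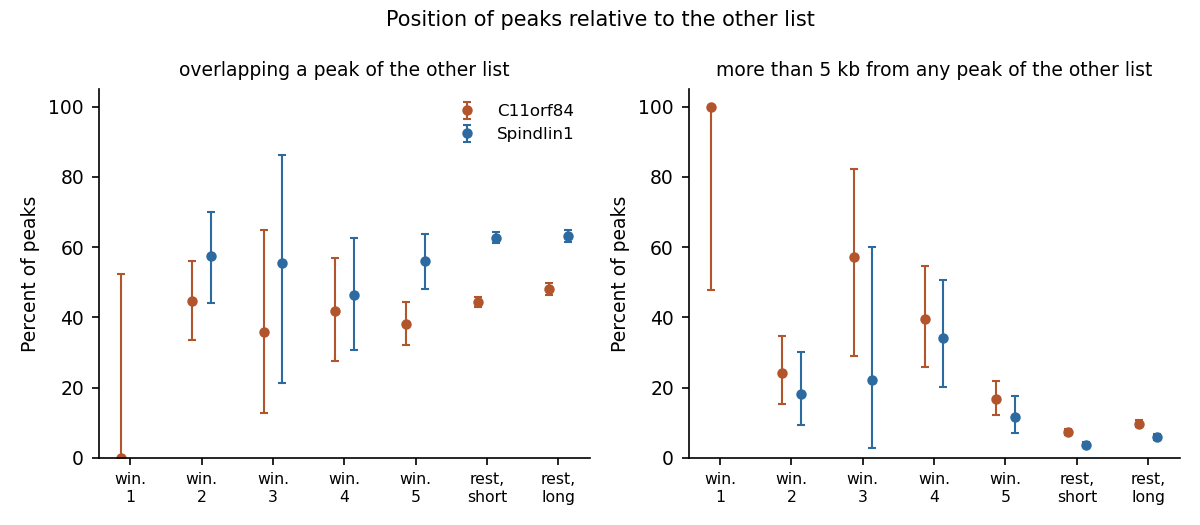
Percent of peaks (vertical axes) that overlap a peak of the other list by at least 1 bp (left) or lie beyond 5 kb of every peak of it (right), by window and for the rest of each arm of chromosome 19. Points are shares and error bars exact Clopper-Pearson 95% intervals; Spindlin1 has no point in window 1, where it had no peak. Windows 3 and 4 had 57.1% and 39.6% of C11orf84 peaks far from Spindlin1, against 7.32% and 9.73% on the rest of the short and the long arm.

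At shared places in the windows the proteins had similar depth. The 156 shared C11orf84 members had 148 Spindlin1 partners by largest overlap, with medians of 12 fragments in both. C11orf84 was deeper in 74 pairs, Spindlin1 in 60, and 22 were equal. On the rest of the chromosome C11orf84 was deeper in 1939 pairs, Spindlin1 in 1386 and 554 were equal. Summits of a pair lay a median of 67.5 bp apart in the windows and 70.0 bp on the rest.

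Isolated peaks made up a larger part of the windows. Fewer peaks per Mb by themselves put peaks farther apart, so the distances below are not a trait separate from the low density. Beyond 5 kb of every peak of the other protein lay 93 C11orf84 members (23.4%, 19.4 to 27.9) and 46 Spindlin1 members (16.7%, 12.5 to 21.7). On the rest it was 8.43% of C11orf84 (7.85 to 9.05) and 4.77% of Spindlin1 peaks (4.26 to 5.32), and on chromosomes 1 to 22 and X 10.9% of C11orf84 and 8.36% of Spindlin1 peaks. Peaks of the same list were also farther apart. The median distance from a summit to the nearest of its own list was 1554 bp in the windows and 926 bp on the rest for C11orf84, and 3215 bp in the windows and 1158 bp on the rest for Spindlin1. In window 4 it was 7496 bp for C11orf84 and 16751 bp for Spindlin1, and in window 3 it was 19592 bp for C11orf84 and 25700 bp for Spindlin1.

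Unshared members of windows 3 and 4 lay far from the other list. The median gap between an unshared C11orf84 member and the nearest Spindlin1 peak was 25141 bp in window 3 and 21438.5 bp in window 4, against 1098 bp on the rest. For unshared Spindlin1 members it was 12271.5 bp in window 3 and 15968.5 bp in window 4, against 802 bp on the rest. The window 3 medians rest on few peaks, since 5 of its 14 C11orf84 and 5 of its 9 Spindlin1 peaks were shared. Long gaps also go with the low density of these windows. In window 5 the gaps were 1779 bp for C11orf84 and 778.5 bp for Spindlin1.

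The local background under the peaks was compared in the same way. The lowest background of a list, its floor, was 1.04 fragments for C11orf84 and 0.949 for Spindlin1, and values below it cannot be read. At the floor stood 255 C11orf84 members (64.2%, 59.3 to 69.0) and 151 Spindlin1 members (54.9%, 48.8 to 60.9), against 68.4% of C11orf84 (67.4 to 69.4) and 66.9% of Spindlin1 peaks (65.7 to 68.0) on the rest. The intervals of windows and rest overlapped for C11orf84 and were apart for Spindlin1. Over chromosomes 1 to 22 and X these shares were 49.3% for C11orf84 and 48.2% for Spindlin1. The rest of the short arm had 75.6% of C11orf84 and 76.1% of Spindlin1 peaks at the floor. The rest of the long arm had 59.9% of C11orf84 and 56.7% of Spindlin1 peaks there, so the choice of arm moves the comparison.

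A raised background, 2 or more times the floor, was found under 33 C11orf84 members (8.31%, 5.79 to 11.5) and 19 Spindlin1 members (6.91%, 4.21 to 10.6). On chromosomes 1 to 22 and X the shares were 9.19% for C11orf84 and 9.07% for Spindlin1. On the rest of chromosome 19 they were 4.50% (4.07 to 4.97) for C11orf84 and 4.61% (4.11 to 5.16) for Spindlin1. The intervals of windows and rest did not overlap for C11orf84 and overlapped for Spindlin1. Against the rest of the long arm alone, with 6.51% of C11orf84 (5.76 to 7.33) and 6.72% of Spindlin1 peaks (5.85 to 7.67), the intervals overlapped in both lists. In windows 2 to 4 together, raised backgrounds were found under 20 of 145 C11orf84 members (13.8%, 8.63 to 20.5) and 13 of 111 Spindlin1 members (11.7%, 6.39 to 19.2), with an interval clear of the rest of the long arm for C11orf84 and not for Spindlin1. In window 5 they were found under 5.26% of C11orf84 (2.83 to 8.83) and 3.66% of Spindlin1 members (1.35 to 7.79).

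Raised backgrounds in the windows rested on few Input reads, if the unit of the background is taken as an Input read, which is an inference. Of the 33 C11orf84 members, 31 stood at whole numbers of 4 to 9 such reads in a window of 1 fragment length, and of the 19 Spindlin1 members 13 stood at 4 to 6. The highest background was 4.91 times the floor for C11orf84 and 3.42 times for Spindlin1, both in the first bin of window 2, and Spindlin1 had the same value at 2 further places. Outside the windows the highest on the long arm was 51.3 times for C11orf84 and 49.7 times for Spindlin1, and on the short arm it was 4.91 times for C11orf84 and 5.71 times for Spindlin1. Members on raised background had a median of 15 fragments for C11orf84 and 13 for Spindlin1, with a median fold of 4.29 for C11orf84 and 4.40 for Spindlin1. Of these members 48.5% were shared for C11orf84 and 52.6% for Spindlin1.

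**Figure D5:**
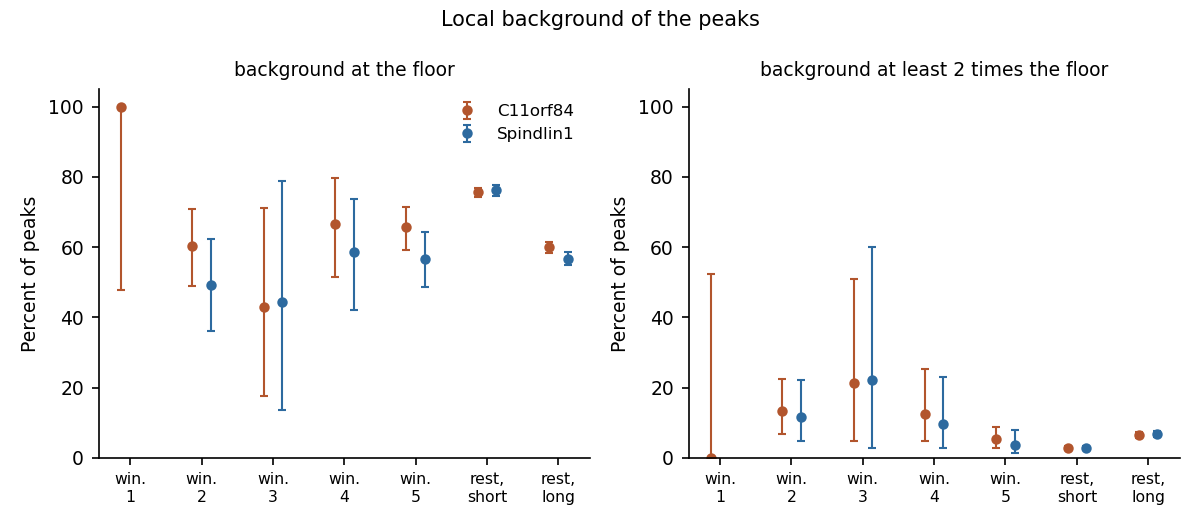
Percent of peaks (vertical axes) whose recovered background stands at the lowest value of the list (left) or at 2 or more times that value (right), by window and for the rest of each arm of chromosome 19. Points are shares and error bars exact Clopper-Pearson 95% intervals; Spindlin1 has no peak in window 1. Raised backgrounds were found under 13.3% of C11orf84 and 11.5% of Spindlin1 peaks in window 2. On the rest of the long arm, where window 2 lies, the shares were 6.51% of C11orf84 and 6.72% of Spindlin1 peaks, with intervals that overlapped those of window 2. The rest of the short arm had 2.78% of C11orf84 and 2.69% of Spindlin1 peaks.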

How the data were processed

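Per the submitters' processing notes, reads were aligned to hg19 with Bowtie 1.2.2. How peaks were called, and against which control, is not given in the sources used here. The deposited fold is the authors' ratio of summit to local background, and the deposited −log10 p-value and −log10 q-value are the authors' for the summit. The deposited score equals the whole part of 10 times −log10 q and was not used. Summit depth k and background λ were recovered from fold = (k + 1)/(λ + 1) and the Poisson p-value, with a largest error of 0.000148 (C11orf84) and 0.000174 (Spindlin1) in −log10 p. Total read numbers are unknown. Peaks were assigned to windows by summit. Arms were split at the longest stretch without peaks. Densities carry exact Poisson intervals, ratios exact conditional intervals and shares Clopper-Pearson intervals; intervals of a difference span the bounds of both shares. Chromosome Y was left out of genome values. On simulated data, 100% of 5000 depths, overlaps and windows were returned. The windows, tests and the rule for named peaks (highest fold per window, 5 of highest fold, 3 widest, 3 of highest fold beyond 5 kb from the other list, extreme bins) were chosen with earlier results of these data known. Versions were SciPy 1.17.1, NumPy 2.4.6, pandas 2.3.3, matplotlib 3.10.9 and Python 3.11.15.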

Additional observations from a re-analysis of the deposited data

How the results depend on the processing

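The density ratio of windows to rest stayed below 1 in both lists under every alternative run. For C11orf84 it was 0.237 with long peak-free stretches left out of the length, and it moved beyond its interval to 0.279 without window 1, 0.263 without window 4, 0.137 without window 5, and 0.175 without windows 1 and 5. It was 0.211 with windows trimmed by 100 kb, 0.283 against the rest of the long arm, 0.198 against that of the short arm, and 0.157 without the outermost 5 Mb of the arms, which removes window 5. It was 0.184 with all peak-free stretches kept and 0.172 with only that at the centromere left out. For Spindlin1 it was 0.218, and moved to 0.260 without window 1, 0.135 without window 5, 0.178 without both, 0.252 against the long arm, 0.188 against the short arm, 0.151 without the arm ends, 0.170 with all stretches kept and 0.158 with only that at the centromere left out. It was also 0.247 for peaks with −log10 q of 10 or more and 0.179 for peaks at the background floor. The settings without windows 1 and 5 together and with only the centromere stretch left out were chosen after seeing the data. The difference in shared peaks turned from -6.78 to 1.13 percentage points for C11orf84 under the −log10 q limit, and from -7.96 to 1.24 points for Spindlin1 with 50% of both intervals covered. Its interval held 0 in both lists under these 2 settings, with summits at most 200 bp apart (-5.20 for C11orf84 and -3.21 for Spindlin1), without window 5, without windows 1 and 5 and without the arm ends. It also held 0 for C11orf84 against the short arm (-5.08) and for Spindlin1 without window 4 (-6.46). The difference in raised background was 3.81 points for C11orf84, and became 8.83 without window 5, 9.29 without windows 1 and 5 and 7.84 without the arm ends. It was smaller, with intervals that held 0, without window 2 (2.505), against the long arm (1.8) and under the −log10 q limit (0.939). Under the other settings run its interval stayed above 0. For Spindlin1 the difference was 2.30 points with an interval that held 0 (-0.947 to 6.47). It became 7.10 without window 5 or without windows 1 and 5, 0.19 against the long arm, and -1.46 under the −log10 q limit. The median fold difference was 0 in both lists and became 0.37 for C11orf84 under that limit, where 30 C11orf84 and 19 Spindlin1 members remained. For Spindlin1 it was -0.36 without window 5, without windows 1 and 5 and without the arm ends. The ratio of C11orf84 to Spindlin1 peak numbers stayed within its interval throughout, from 1.31 to 1.69. The cause of these changes was not tested. No paired analysis was possible because each antibody has 1 library. Depth limits the rest, since medians of 11 (C11orf84) and 10 (Spindlin1) fragments leave folds on a coarse scale and windows 1 and 3 hold at most 14 peaks of a list.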

Other observations

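The stretch without Spindlin1 peaks that contains window 1 ran from chr19:19774904 to 24513879 and measured 4.74 Mb. By length it ranked 12 among 153355 stretches between consecutive Spindlin1 peaks on chromosomes 1 to 22 and X. The longest stretch without C11orf84 peaks in window 1 measured 2.25 Mb and ranked 38 among 177534. The longer stretches were not sorted into assembly gaps and sequenced DNA.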
